A study of Homo sapiens with 6 samples.

Results

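The pro-apoptotic members of the BCL2 family were followed in RNA-seq of SW839, an established line of renal cell carcinoma, after knockdown of the ubiquitin ligase RNF25. The 10 genes BAX, BAK1, BOK, BID, BAD, BIK, BMF, BCL2L11, BBC3 and PMAIP1 were taken by symbol from the deposited table of 30267 genes, and all 10 were found in it and passed the filter on low values. Total RNA was compared between 3 libraries labelled shRNF25, from cells carrying a short hairpin RNA against RNF25, and 3 libraries labelled shControl, whose library names carry the vector name PLKO. Both groups were grown in medium with serum, penicillin and streptomycin, and per the study's methods knockdown lines were infected with virus in polybrene and selected with puromycin, a toxic antibiotic. The treatment text of the controls also speaks of the shRNF25 plasmid, so the groups rest on titles and genotype labels. The libraries were described as biological triplicates, and the shRNF25 libraries share 1 hairpin name, so that loss of RNF25 and any off-target action of the hairpin cannot be told apart.

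BCL2 family proteins set the threshold of the mitochondrial pathway of apoptosis. BAX, BAK1 and BOK are the effectors, which can open pores in the outer mitochondrial membrane and release cytochrome c, while the BH3-only proteins sense damage and either activate the effectors or neutralize the protective members such as BCL2, BCL-XL and MCL1. Several BH3-only proteins are switched on by cleavage or by loss of phosphorylation rather than by their mRNA, and only mRNA was measured here. Renal cell carcinoma is known for its resistance to drugs that act through this pathway.

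Between 18647460 and 19943154 reads per library fell on genes. RNF25 checked the labels, with normalized counts of 694.2, 533.5 and 536.4 in shControl and 214.1, 245.7 and 265.0 in shRNF25. The log2 difference was -1.27 ± 0.15 (standard error or SE, limma adjusted p = 0.000585). The library shControl 1 stood apart from the other controls in a way that followed base composition. Its log2 difference from the mean of shControl 2 and 3 had a median of 0.44 over the 1631 genes with a GC content up to 40% and of -0.42 over the 2376 genes above 60%. The Spearman correlation of this difference with GC content across 15937 genes, which share the same libraries, was -0.57. Each taken against the rest of its group, shControl 2 and 3 had 0.36 and 0.44, with shControl 1 part of what they were compared with. The shRNF25 libraries had values between -0.024 and 0.020. Pearson correlations of log2 values were 0.976 to 0.987 between controls and 0.994 between shRNF25 libraries, so the controls were the more variable group. Of the renal epithelial markers, KRT8, KRT18, VIM and PAX8 were tested, CA9 and CDH6 lay below the filter, and PAX2 had no row. VIM, the gene of the intermediate filament vimentin, was higher, with normalized counts of 447.7, 415.5 and 202.9 in shControl and 803.7, 881.9 and 810.2 in shRNF25 (log2 fold change 1.31, limma adjusted p = 0.00805). The keratin gene KRT8, at 0.38 (limma adjusted p = 0.111), and PAX8, at -0.45 (limma adjusted p = 0.11), were without overlap between the groups but did not pass. Of 9 markers of blood and endothelial cells, 7 had a row. Their summed normalized count was 480.9 to 691.8 in shControl and 430.8 to 577.7 in shRNF25, nearly all of it from the endothelial genes PECAM1 and CDH5. CDH5 went from 73.0, 102.6 and 198.6 to 3.64, 8.31 and 5.72, while the leukocyte gene CD3E did not exceed 1 read in any library. The part of these markers in the results was not tested.

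Among the 10 members, BIK, BMF and BID were lower in shRNF25, and no member was higher. The 3 genes are all BH3-only proteins, as are all members except the effectors BAX, BAK1 and BOK. Mean normalized counts of BIK, BMF and BID were 40.4%, 48.4% and 61.0% of the control means. Calls were made at a limma adjusted p below 0.05 with a fold change of at least 1.5. These cut-offs are the study's, which applied them to DESeq2. DESeq2, run here as an alternative, called BBC3 lower as well. By the limma rule 7.1% of all 16554 tested genes were lower and 8.65% were higher. The median log2 fold change of the 10 members was -0.13, beside -0.013 over all tested genes. The groups did not overlap for 4 members, all lower, where 21.8% of tested genes were lower without overlap. The names of the 3 called genes were the same in each of the 16 alternative fits at that rule, to which 4 of them added BBC3, while a limit of 2-fold kept 2, BIK and BMF. In these cultures fewer cells expressing a gene and less RNA per cell cannot be told apart.

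**Figure D1:**
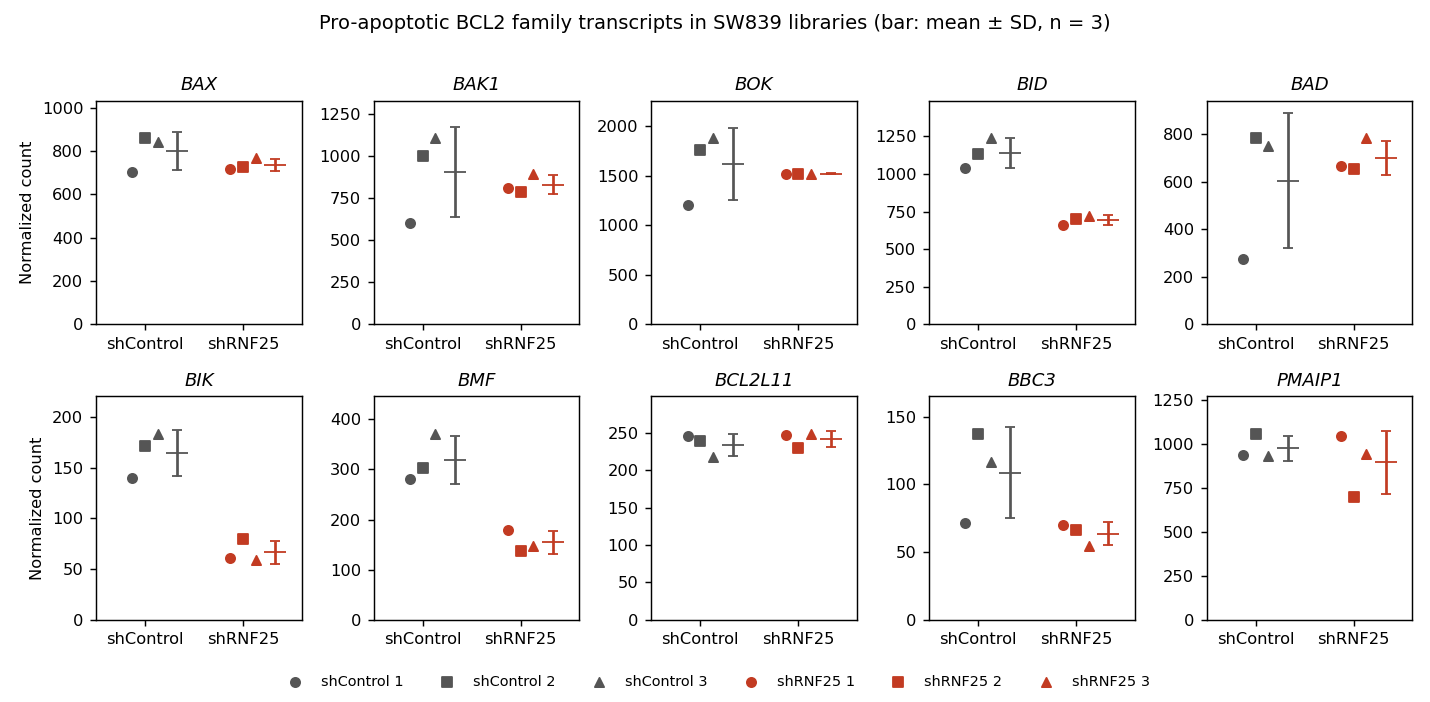
Normalized count of each of the 10 members in each library, with a y axis from 0 in every panel, 1 marker shape per replicate, and bars for the mean ± SD (n = 3). BIK, BMF, BID and BBC3 have every shRNF25 point below every shControl point, and shControl 1 lies far below the other controls in BAD and BAK1.

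BIK, a BH3-only protein that sits at the endoplasmic reticulum, showed the strongest fall. Its normalized counts were 139.3, 171.3 and 183.5 in shControl and 61.0, 79.4 and 59.1 in shRNF25. The highest shRNF25 library thus stayed well below the lowest control. BIK was 2.46-fold lower, with a log2 fold change of -1.30 (SE 0.19, 95% interval from -1.72 to -0.88, limma adjusted p = 0.00162). The gene was counted with 62 to 170 reads per library, the second fewest of the 10 members. Across the 16 alternatives its log2 fold change lay between -1.43 and -1.22 with an adjusted p of 0.0141 at most. BIK lies on chromosome 22 from 43110748 to 43129712 on the plus strand (GENCODE 29, GRCh38), and no other gene of that annotation overlaps its exons.

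BMF, a BH3-only protein held at the cytoskeleton through dynein light chain 2 and freed by loss of attachment, fell as well. It had normalized counts of 280.8, 303.7 and 371.3 in shControl and 179.5, 136.7 and 146.8 in shRNF25, again without overlap. The fall was 2.06-fold, with a log2 fold change of -1.04 (SE 0.16, 95% interval from -1.41 to -0.67, limma adjusted p = 0.00263). It lay between -1.15 and -0.93 across the alternatives, with an adjusted p of 0.0195 at most. BMF spans 40087890 to 40108892 on the minus strand of chromosome 15, where BMF-AS1 overlaps 8.46% of its exon bases on the other strand. BMF-AS1 itself had no row. The strand setting of the counting is not given in the sources used here, so reads of the pair cannot be told apart. DYNLL2, the gene of dynein light chain 2, was higher, at 1.29-fold (limma adjusted p = 0.043), which is under the 1.5-fold limit. It missed the adjusted p with no filter on low values, with the replicate block, without shControl 2 and without any 1 shRNF25 library.

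BID, the protein that caspase-8 cleaves to carry a death receptor signal to the mitochondria, was the most abundant of the 3. Its normalized counts were 1039, 1133 and 1239 in shControl and 658.8, 698.2 and 722.5 in shRNF25. The values within each group were close together, with SDs of 100.0 and 32.2 for means of 1137 and 693.2 (n = 3 each). BID was thus 1.64-fold lower, with a log2 fold change of -0.71 (SE 0.11, 95% interval from -0.96 to -0.46, limma adjusted p = 0.00264), and of -0.77 without shControl 1. BID lies on chromosome 22 from 17734138 to 17774770 on the minus strand. CASP8, the gene of the protease that cleaves it, had a log2 fold change of -0.11 (limma adjusted p = 0.616). For each of BIK, BMF and BID an exact permutation test (two-sided) gave p = 0.1, the lowest value that 3 against 3 libraries can reach.

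BBC3, the gene of PUMA, a BH3-only protein that binds all the main protective members, was the fourth member without overlap, yet its call depended on the analysis. Its normalized counts were 71.9, 137.5 and 116.6 in shControl and 70.2, 66.5 and 54.3 in shRNF25. The library shControl 1 lay close to the shRNF25 libraries, at a log2 difference of -0.81 from the other controls, and the gene has a GC content of 64.5%. The log2 fold change was -0.72 (SE 0.25, 95% interval from -1.28 to -0.16) with a limma adjusted p of 0.0705, short of the threshold. Without shControl 1 it was -0.99 (limma adjusted p = 0.00274). After a correction of each library for GC content, chosen after the data had been seen, it was -0.73 (limma adjusted p = 0.0194). DESeq2, the test that the study used, gave an adjusted p of 0.0334 and edgeR 0.0639. With 57 to 134 reads per library this was the member with the fewest reads, and it lies on chromosome 19 from 47220822 to 47232766 on the minus strand.

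**Figure D2:**
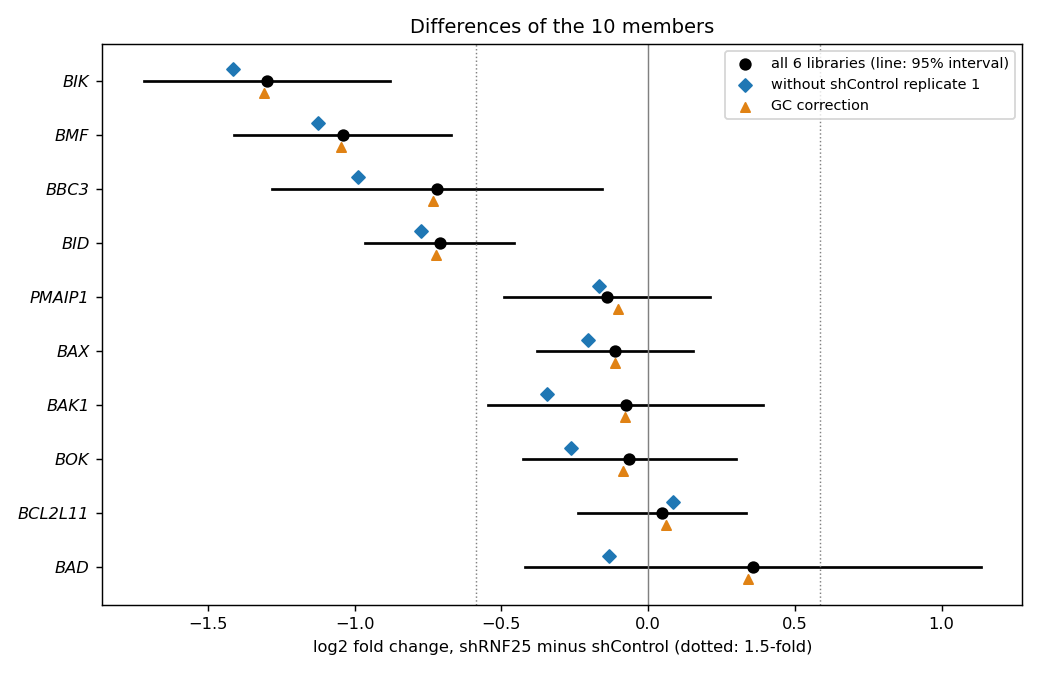
Log2 fold change of each member (x axis, shRNF25 minus shControl) with all 6 libraries and its 95% interval from limma (black), without shControl replicate 1 (blue diamonds) and after GC correction (orange triangles). BIK, BMF and BID lie beyond the 1.5-fold line in all 3 analyses, and BAD changes side when shControl 1 is left out.

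The effectors did not pass the test. BAX, the cytosolic effector that moves to mitochondria on activation, had normalized counts of 702.0, 860.8 and 840.8 in shControl and 718.9, 725.9 and 770.2 in shRNF25. Its log2 fold change was -0.11 (95% interval from -0.38 to 0.15, limma adjusted p = 0.533). The interval leaves out a 1.5-fold change in either direction, which is 0.585 on the log2 scale, as did those of BAK1 and BOK. BAX lies on chromosome 19 from 48954815 to 48961798 on the plus strand.

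BAK1, the effector that resides in the outer mitochondrial membrane, had normalized counts of 601.4, 1002 and 1107 in shControl and 811.0, 786.8 and 894.1 in shRNF25. The shRNF25 values fell between the low shControl 1 and the other controls. Its log2 fold change was -0.076 (95% interval from -0.54 to 0.39, limma adjusted p = 0.827) and became -0.34 (limma adjusted p = 0.0151) without shControl 1. After GC correction it was -0.078 (limma adjusted p = 0.705). BAK1 lies on chromosome 6 from 33572547 to 33580293, and its pseudogene BAK1P1 shares 12.8% of the 50-base stretches in the longest BAK1 coding transcript and had at most 4 reads in any library.

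BOK, an effector-like protein that does not depend on the other family members in the same way, had normalized counts of 1209, 1767 and 1883 in shControl and 1517, 1524 and 1523 in shRNF25. The shRNF25 libraries were almost identical, while the controls lay on both sides of them. The log2 fold change was -0.064 (95% interval from -0.43 to 0.30, limma adjusted p = 0.81). Without shControl 1 it was -0.26 (limma adjusted p = 0.0181), under 1.5-fold, and after GC correction -0.085 (limma adjusted p = 0.454). Without shControl 1, BBC3, BAK1 and BOK joined BIK, BMF and BID, so that 6 of the 10 members were lower at an adjusted p below 0.05 with no fold limit. By that rule and without that library 18% of all tested genes were lower, against 10.8% with all 6 libraries.

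The other BH3-only genes did not pass the test either. BAD, a sensitizer that survival kinases inactivate by phosphorylation, had normalized counts of 275.3, 783.9 and 751.2 in shControl and 666.1, 653.8 and 783.5 in shRNF25. The value in shControl 1 had a log2 difference of -1.48 from the other controls, the farthest of any member. The log2 fold change was 0.36 with a wide 95% interval from -0.42 to 1.13 (limma adjusted p = 0.494), and -0.13 (limma adjusted p = 0.315) without shControl 1. BAD lies on chromosome 11 from 64269830 to 64284704 on the minus strand with a GC content of 65.2%, and GPR137 overlaps 23.7% of its exon bases on the other strand. GPR137 itself had normalized counts of 1152, 1244 and 1201 in shControl and did not share the low value of BAD in shControl 1. In shRNF25 it had 1428, 1456 and 1566, each above every control (log2 fold change 0.31, limma adjusted p = 0.0588, edgeR 0.0391, DESeq2 0.0272), and without a stated strand setting its reads cannot be told apart from those of BAD where the pair overlaps.

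BCL2L11, the gene of the activator BIM, was nearly level in the 6 libraries. Its normalized counts were 245.4, 239.1 and 216.9 in shControl and 246.9, 229.0 and 248.8 in shRNF25. The log2 fold change was 0.048 (95% interval from -0.24 to 0.33, limma adjusted p = 0.82), an interval that leaves out a 1.5-fold change in either direction. It lies on chromosome 2 from 111119378 to 111168447, and MIR4435-2HG overlaps 10.9% of its exon bases on the other strand with a log2 fold change of -0.050.

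PMAIP1, the gene of NOXA, which neutralizes MCL1, had normalized counts of 936.3, 1060 and 932.5 in shControl and 1049, 700.0 and 941.7 in shRNF25. Here shRNF25 2 was the lowest library and shRNF25 1 lay near the highest control. The log2 fold change was -0.14 (95% interval from -0.49 to 0.21, limma adjusted p = 0.557), so that a 1.5-fold change again lay outside the interval. PMAIP1 lies on chromosome 18 from 59899948 to 59904306.

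To compare levels between genes, normalized counts were divided by the exon length of each gene in GENCODE 29. In shControl the members ranged from BOK at 597.5 ± 132.9 (SD, n = 3) normalized counts per kb to BBC3 at 34.2 ± 10.5 (SD, n = 3). From the top the order was BOK, PMAIP1, BAK1, BAD, BAX, BID, BIK, BMF, BCL2L11 and BBC3. The library ranges of neighbours overlapped down to BID. BID at 255.7, BIK at 172.8 and BMF at 58.5 were each separate from the next, and BCL2L11 at 35.1 overlapped with BBC3. In shRNF25 the level of BID was 155.9 ± 7.23, that of BIK 69.8 ± 11.8 and that of BMF 28.3 ± 4.11 (SD, n = 3 each). BMF then lay below BCL2L11, which stood at 36.3 ± 1.64 (SD, n = 3), without overlap. The 5 members at the top of the control order, which include all 3 effectors, were the same 5 in shRNF25.

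**Figure D3:**
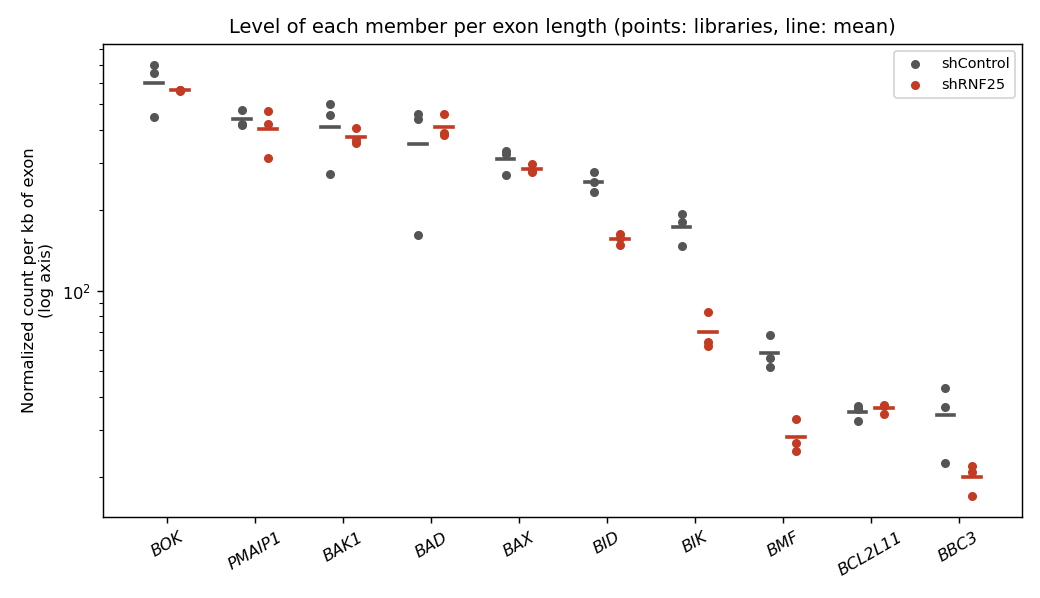
Normalized count per kb of exon for each member on a log axis, ordered by the shControl mean, with a point per library and a line at the mean of each group. The effectors and PMAIP1 and BAD occupy the upper end in both groups, and the level of BIK drops from 172.8 to 69.8.

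Promoter sequences were examined because BIK, BMF and BID were lower, while the other BH3-only members did not pass in the main fit. RefSeq windows of the 250 bases before each transcript start (GRCh38.p14) were at hand for 9 members; BIK had none. They were searched on both strands for the NF-κB consensus, the FOXO motif GTAAACA, the AP-1 motif TGANTCA and the HIF core ACGTG. The NF-κB consensus occurred in 1 member, BMF, and in 1 of its 2 windows. The match GGGATGCCCC lay at 20 to 11 bases before the outer start of BMF, at 40108890 to 40108899. That RefSeq start, 40108879, lies inside the GENCODE span of BMF, which ends at 40108892, so the match partly overlaps that span. Of all 35116 windows, 5.21% held this consensus. The BMF window that held the match, chr15:40108880-40109129 on the minus strand, is shown with the match in capitals.
BMF promoter: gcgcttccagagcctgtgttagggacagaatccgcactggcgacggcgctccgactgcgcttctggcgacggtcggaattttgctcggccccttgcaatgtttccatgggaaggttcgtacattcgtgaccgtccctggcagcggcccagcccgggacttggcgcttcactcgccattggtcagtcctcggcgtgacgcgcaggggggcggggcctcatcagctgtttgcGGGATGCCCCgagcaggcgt
BBC3 held the AP-1 motif, found in 6.57% of windows, at 113 bases before its start, and the HIF core, found in 18.5% of windows, on both strands within 1 palindrome. Its RefSeq start, 47232667, lies inside the GENCODE span, which ends at 47232766, so both matches lie nearer to that end. The part of the BBC3 window from 250 to 101 bases before the RefSeq start, chr19:47232768-47232917 on the minus strand, shows both in capitals.
BBC3 promoter: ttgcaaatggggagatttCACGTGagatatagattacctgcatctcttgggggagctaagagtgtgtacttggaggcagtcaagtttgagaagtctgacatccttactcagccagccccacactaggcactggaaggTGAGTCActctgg
The FOXO motif, present in 2.98% of windows, occurred in 1 member, BCL2L11. The HIF core also occurred in BAX and in 2 of the 5 windows of BID. None of these motifs was found in the windows of BOK, BAD or PMAIP1. A match only describes these letters in these windows, and binding was not measured here.

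Among 46 other genes of the mitochondrial pathway, 42 were tested, 3 were lower by the call rule and none was higher, with a median log2 fold change of -0.089. The share lower was close to the 7.1% of all tested genes. By edgeR and DESeq2 as well none was higher by that rule, and by limma at an adjusted p below 0.05 with no fold limit 7 were lower and 3 higher, where 10.8% of all tested genes were lower and 10.5% higher. Of the protective BCL2 proteins, 5 of 6 were tested. BCL2A1, an NF-κB target that binds BH3-only proteins, went from 139.3, 134.4 and 148.9 to 15.5, 9.24 and 13.3 in normalized count, a log2 fold change of -3.40 (limma adjusted p = 3.19e-05). BCL2L1, the gene of BCL-XL, was higher in every shRNF25 library, at 1.30-fold (limma adjusted p = 0.0323), below the fold limit. Like DYNLL2, BCL2L1 missed the adjusted p with no filter on low values, with the replicate block, without shControl 2 and without any 1 shRNF25 library. MCL1, with a log2 fold change of -0.0030, BCL2L2 at 0.24 and BCL2 at 0.10 did not pass.

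The other called genes were mitochondrial BCL2 relatives that serve mitophagy and are known HIF targets. BNIP3 went from 3079, 2052 and 2349 to 789.1, 846.9 and 776.8, a log2 fold change of -1.61 (limma adjusted p = 0.000176). BNIP3L had a log2 fold change of -1.41 (limma adjusted p = 0.000112), and BCL2L13 did not pass, at -0.0052. None of the 10 released or apoptosome proteins passed in the main limma fit, with CYCS, the gene of cytochrome c, nearest at -0.38 (limma adjusted p = 0.0502). DESeq2 gave CYCS an adjusted p of 0.0278, and it also passed the adjusted p, under 1.5-fold, with a pseudocount of 5, without shControl 1, without shControl 3 and with GC correction. The protease gene HTRA2 was lower by the call rule without shControl 1, and passed the adjusted p, under 1.5-fold, with GC correction. Of the rest of that list, some passed the adjusted p, lower and under 1.5-fold, with GC correction or without shControl 3. Of the 8 transcriptional regulators of pro-apoptotic genes none was called at 1.5-fold. FOXO3, an activator of BH3-only genes, was lower at -0.47 (limma adjusted p = 0.0188), and TRIB3 was higher at 0.53 (limma adjusted p = 0.023). VDAC1 among the 3 outer membrane channels, and HUWE1 and MAPK3 among the 12 kinases and partners, were lower at an adjusted p below 0.05 and under 1.5-fold. HUWE1 missed the adjusted p with no filter on low values, quantile normalization, rescaling, edgeR and the replicate block. VDAC1 missed it with quantile normalization and MAPK3 with GC correction. Without shRNF25 1, 2 or 3 in turn, the list had 3 lower and 0 higher genes at an adjusted p below 0.05 with no fold limit, instead of 7 and 3.

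**Figure D4:**
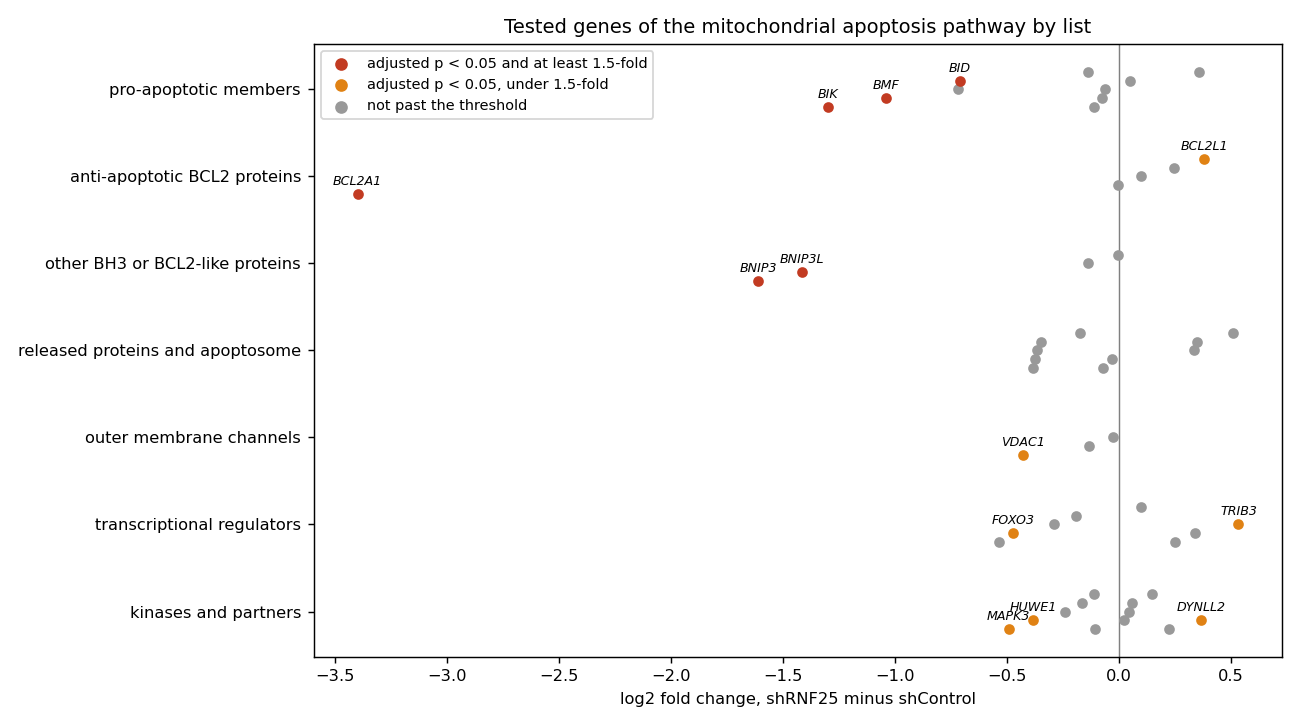
Log2 fold change (x axis) of the 10 members and of each tested gene of 6 pathway lists (rows), with called genes in red, genes past the adjusted p alone in orange and the rest in grey; the vertical offset within a row has no meaning. BCL2A1 at -3.40, BNIP3 at -1.61 and BNIP3L at -1.41 lie farther out than BIK at -1.30.

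The tested genes whose log2 values were most like those of BIK over the 6 libraries were GPANK1, DYRK2 and KCNQ1, with Pearson correlations of 0.997, 0.996 and 0.995. With 6 libraries in 2 groups such values are common, and 425 genes had a correlation above 0.95. KCNQ1, a potassium channel gene, had normalized counts of 95.1, 120.0 and 113.3 in shControl and 31.9, 48.9 and 32.4 in shRNF25.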

How the data were processed

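RNA from 3 shRNF25 and 3 shControl libraries of SW839 cells was analysed. Per the labels and the paper's methods, the authors depleted ribosomal RNA, prepared stranded libraries and tested with DESeq2. The submitters' processing notes name fastp, HISAT2, HTSeq and GRCh38, without roles. The authors deposited a normalized count per gene and library, a signal already divided by a size factor and not corrected for length or GC content. Whole reads were recovered for 100% of values, within 0.01 reads, by dividing by the smallest step of each library.

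After adding 1, the normalized counts were put on the log2 scale. The 16554 genes that reached 10 in 3 or more libraries were fitted with limma 3.58.1 (lmFit, eBayes with a trend) in R 4.3.3, with the group as the term, and Benjamini-Hochberg adjustment over all of them. Fold changes are on this scale, which understates those of low genes. Intervals are limma's moderated 95% intervals. The count tests edgeR 4.0.16 and DESeq2 1.42.0 on the recovered reads called 2658 and 2634 genes of all tested. The scripts were tested on simulated data. All 10 members, RNF25, the called genes of each pathway list (at most 4) with 1 that was not called, and the 3 genes most correlated with the called member of largest change were named; genes past the adjusted p alone, CYCS, HTRA2, FOXO1, CASP8, the cell type markers and the genes overlapping members were named after their values were seen. The members and lists were chosen with earlier results of these data known. A few genes and a motif of the lists are not reported here. Gene positions and lengths come from GENCODE 29 by symbol. The labels give no batch, so that knockdown and a batch along the same split cannot be told apart.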

Additional observations from a re-analysis of the deposited data

How the results depend on the processing

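Pseudocounts of 5 and 0.5, no filter, a value of at least 50, quantile normalization, rescaling on the median ratio, edgeR, DESeq2, the replicate block, each library left out, and the GC correction added after the data were seen kept BIK, BMF, BID and RNF25 lower past the threshold. BBC3 passed with quantile normalization (-0.83), DESeq2 (-0.76), without shControl 1 (-0.99) and with GC correction (-0.73). Without 1 library it ranged from -0.99 to -0.53.

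Of the 7 members short of the threshold, 5 changed sign, and BAX and BBC3 stayed below 0. With quantile normalization BAK1 was at 0.0040 and BOK at 0.030, and with rescaling BOK was at 0.0016. Without 1 library BAK1 ranged from -0.34 to 0.095, BOK from -0.26 to 0.058, BAD from -0.13 to 0.62, BCL2L11 from -0.0048 to 0.086 and PMAIP1 from -0.26 to 0.028. The sign of BAD turned without shControl 1, that of PMAIP1 without shRNF25 2 and that of BCL2L11 without shControl 3; the cause was not tested.

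Of the pathway genes, 1 (TRIB3) was higher with quantile normalization, 1 with rescaling and 0 to 1 without 1 library, HTRA2 was lower as well without shControl 1 and FOXO1 without shControl 2, and with no fold limit 7 were lower and 3 higher. Over all genes, 1175 were lower and 1432 higher. No fold limit gave 1785 lower, a fold change of at least 2 gave 513 lower and 893 higher, a value of at least 50 gave 898 higher, and the fits on 5 libraries gave from 813 to 1269 lower and from 748 to 1725 higher, the fewest without an shRNF25 library. The replicate block gave 3 lower members and 1193 lower and 1398 higher genes. Deviations of same-numbered libraries correlated at -0.064, -0.087 and 0.047, so the numbers were not taken as pairs.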
